A study of Mus musculus with 7 samples.

Results

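Weak promoter open-chromatin regions (OCRs) were examined in HPC7, a mouse hematopoietic progenitor cell line, by bulk ATAC-seq. The genes were chosen by measured values. A protein-coding gene of GENCODE M21 (mm10) counted as a weak promoter when a peak overlapped the 1 kb on either side of its annotated start in all 7 peak lists and the mean over libraries of its log10 fold enrichment was below 1.0. The fold enrichment is the read pileup at a peak's summit divided by the background of the library, and where several peaks overlapped the window the highest was taken. Of 21938 protein-coding genes, 11327 had a peak at the start in all 7 lists. Of these, 693 genes (6.12%) were weak promoters, 8123 (71.7%) had a mean of 1.7 or more and are called strong promoters, and 2511 lay in between. A further 1194 genes had a peak in 1 to 6 lists and 9417 in no list. Neighboring genes can share a peak, and in HPC7-1 the 693 weak promoters fell on 676 distinct OCRs.

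All 7 libraries (HPC7-1, HPC7-2 and HPC7-4 to HPC7-8) formed 1 group of HPC7 cells that were grown with mouse stem cell factor, each from its own culture batch, and the labels name no treatment, strain or sex. HPC7 is a single line, so the libraries replicate cultures and not animals, and p-values measure only the spread between these cultures. Peak names carry the letters EtOH in the libraries HPC7-5 to HPC7-8 and the letters VD in the remaining libraries. Neither labels nor methods explain these letters, which served as no condition here. The lists held between 84593 and 132852 OCRs, the background was 20.4 reads in HPC7-1 and between 4.44 and 7.45 reads in the other libraries, and read totals are not in these lists. Of 15 stem and progenitor markers, 13 had a promoter peak in all 7 lists, against 5 of 8 mast cell and granulocyte, 3 of 7 erythroid, 2 of 6 fibroblast, 1 of 6 neuron, 0 of 9 lymphoid and 0 of 5 hepatocyte markers.

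A promoter is the stretch of DNA around a gene's start where the transcription machinery assembles. Many mammalian promoters lie in CpG islands, in which the CG dinucleotide has escaped the loss seen in most of the genome, and these promoters are commonly open in all cell types. Promoters without an island more often belong to genes used in a single tissue. Regions that are open but far from any gene start (distal OCRs) include enhancers, which raise transcription from a distance, and binding sites of CTCF, a protein that organizes chromatin loops.

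The start sequences below show the range of base composition among the weakest members. Each runs 5′ to 3′ on the gene's strand, from 120 bases before to the 30th base from the start, was read from the GRCm38 (mm10) assembly of RefSeq, and has each CG dinucleotide in capitals. A start was called CpG island-like when the 1 kb around it had a GC fraction of at least 0.5 and a ratio of observed to expected CpG of at least 0.6. The 4 weak promoters with the lowest intensity that were CpG island-like are given first, with 15, 19, 28 and 9 CG dinucleotides in the stretch.
Sox13 (chr1:133424348-133424497, minus strand): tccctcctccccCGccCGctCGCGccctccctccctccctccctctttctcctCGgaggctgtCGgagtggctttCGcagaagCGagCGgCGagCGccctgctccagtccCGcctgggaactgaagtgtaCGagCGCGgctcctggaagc
Crip2 (chr12:113140116-113140265, plus strand): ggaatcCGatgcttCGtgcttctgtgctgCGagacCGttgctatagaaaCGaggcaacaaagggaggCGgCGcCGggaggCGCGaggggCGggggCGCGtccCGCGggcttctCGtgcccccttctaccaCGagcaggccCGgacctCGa
Tanc2 (chr11:105589866-105590015, plus strand): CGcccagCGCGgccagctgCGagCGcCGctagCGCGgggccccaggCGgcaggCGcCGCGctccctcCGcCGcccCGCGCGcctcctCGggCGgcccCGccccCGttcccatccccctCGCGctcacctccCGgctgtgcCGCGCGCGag
Rhebl1 (chr15:98894511-98894660, minus strand): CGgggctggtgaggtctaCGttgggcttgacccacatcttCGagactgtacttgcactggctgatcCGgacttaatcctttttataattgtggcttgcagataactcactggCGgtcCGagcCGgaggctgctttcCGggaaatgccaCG

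The 4 weakest promoters that were not CpG island-like held 3, 10, 2 and 8 CG dinucleotides in the same stretch.
Gng13 (chr17:25717051-25717200, plus strand): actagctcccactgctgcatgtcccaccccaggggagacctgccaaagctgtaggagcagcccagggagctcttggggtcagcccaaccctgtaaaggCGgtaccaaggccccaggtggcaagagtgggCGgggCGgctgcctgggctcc
Tnfrsf25 (chr4:152115814-152115963, plus strand): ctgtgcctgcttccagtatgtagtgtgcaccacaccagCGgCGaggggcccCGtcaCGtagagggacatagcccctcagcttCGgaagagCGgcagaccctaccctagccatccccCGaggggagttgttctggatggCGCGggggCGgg
Tgfbr3l (chr8:4248094-4248243, plus strand): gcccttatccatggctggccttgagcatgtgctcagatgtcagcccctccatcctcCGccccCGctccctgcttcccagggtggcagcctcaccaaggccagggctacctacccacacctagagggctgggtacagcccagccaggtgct
Insl3 (chr8:71689094-71689243, plus strand): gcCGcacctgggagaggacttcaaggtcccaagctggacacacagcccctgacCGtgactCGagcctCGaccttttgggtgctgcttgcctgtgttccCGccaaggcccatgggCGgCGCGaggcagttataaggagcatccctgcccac

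For contrast, the 2 promoters with the highest intensity of all are shown. Crebzf, a gene of a leucine zipper factor, reached a mean log10 fold enrichment of 3.304 ± 0.0860 (SD, n = 7), and its stretch held 10 CG dinucleotides. Gm10800, a gene model with a mean of 3.22 ± 0.117, held 2 and lies in a part of chromosome 2 that is known in mm10 for satellite repeats. All stretches were placed by the gene start, and the summit that gives the intensity can lie outside them. Examples are Crebzf, with its summit 737 bp upstream, and Crip2, with its summit 1014 bp upstream.
Crebzf (chr7:90442609-90442758, plus strand): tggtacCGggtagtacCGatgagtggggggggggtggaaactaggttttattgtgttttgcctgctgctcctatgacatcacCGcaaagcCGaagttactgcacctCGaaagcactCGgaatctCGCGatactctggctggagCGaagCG
Gm10800 (chr2:98667272-98667421, minus strand): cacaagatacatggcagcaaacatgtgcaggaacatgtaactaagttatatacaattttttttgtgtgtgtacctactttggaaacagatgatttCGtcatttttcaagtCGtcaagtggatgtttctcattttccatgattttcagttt

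The distribution of promoter intensity was dominated by the strong genes. A kernel density of the mean log10 fold enrichment over the 11327 genes had its main mode at 1.98 and a minor one at 1.05, with 0.128 times the height of the main mode and a shallow valley at 1.12. For the mean over libraries, the minor mode thus lay just above the threshold of 1.0, and the weak promoters formed the low flank of a broad shoulder rather than a mode of their own. With 0.5 times the bandwidth, 6 modes appeared, the lowest at 0.805. Within single libraries the lowest mode lay between 0.690 in HPC7-6 and 1.085 in HPC7-8, and HPC7-1 and HPC7-6 had 3 modes instead of 2. The lowest mode was also below 1.0 in HPC7-2 (0.985), HPC7-4 (0.94), HPC7-5 (0.875) and HPC7-7 (0.91), and above it in HPC7-1 (1.07). The label of 2 modes of promoter intensity therefore held at the default bandwidth for the mean over libraries and for the libraries other than HPC7-1 and HPC7-6, and the weak class is a range of intensities set by its threshold. Since these values chose the genes, no test was made of them.

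**Figure D1:**
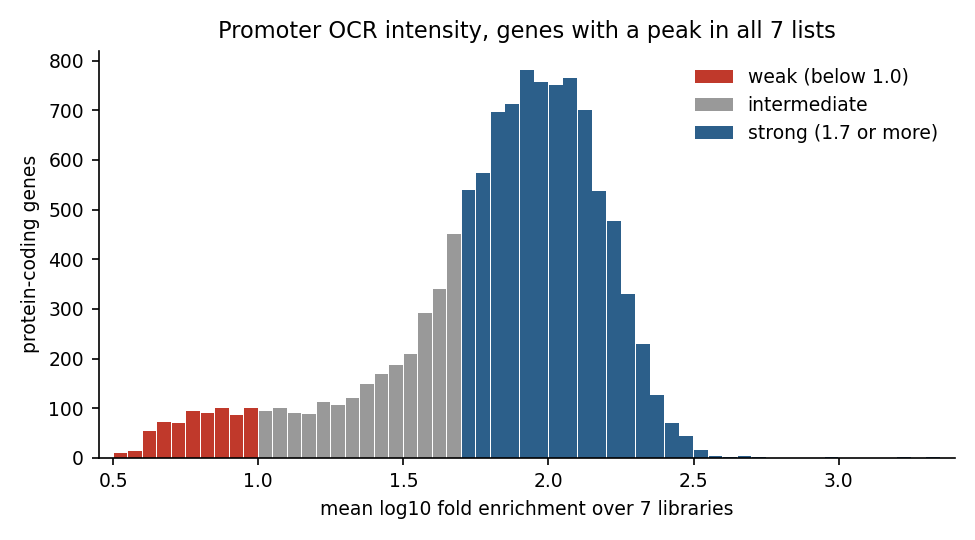
Histogram of the mean log10 fold enrichment over 7 libraries (x axis, bins of 0.05) for the 11327 protein-coding genes with a promoter peak in all 7 lists (y axis, number of genes). The 693 weak promoters (red, below 1.0) lie on a low shoulder that runs on into the 2511 intermediate genes (gray), and the 8123 strong promoters (blue, 1.7 or more) hold the main mode at 1.98.

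Intensities of the weak promoters reached from a mean of 0.516 at Sox13 to just below the threshold. At the median weak promoter of a library, the fold enrichment was 6.61 ± 1.08 (SD, n = 7), against 102 ± 18.2 at the median strong promoter. The median log10 fold enrichment of weak promoters ranged from 0.686 (HPC7-6) to 0.911 (HPC7-8), with 0.816 (HPC7-7) in the middle. HPC7-6 was thus the lowest library and HPC7-8 the highest, and in all 7 libraries the upper quartile of the weak promoters stayed below the lower quartile of the strong ones. The share of weak promoters below 1.0 within a library varied accordingly, from 69.3% (480 genes) in HPC7-8 to 99.3% (688 genes) in HPC7-6. Summits of weak promoters rested on few reads: their median height was 159 reads in HPC7-1 and between 30 and 55 reads in the other libraries, against 2549 and between 462 and 903 reads at strong promoters. The lowest fold enrichment in any list was between 1.68 and 2.44, so that the weakest members were close to what the lists can hold.

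**Figure D2:**
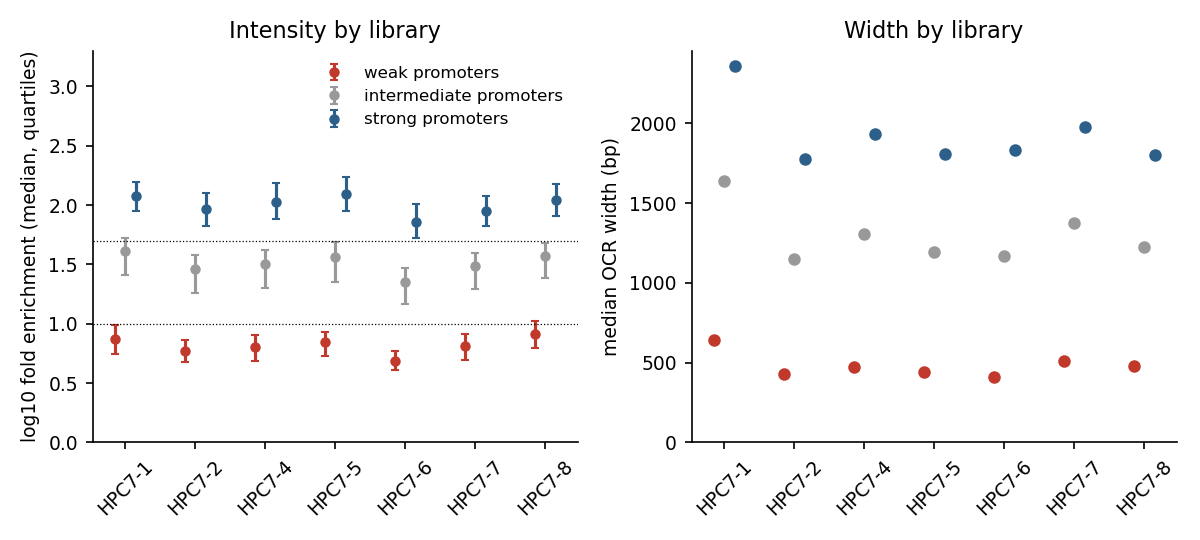
Left, median and quartiles (bars) of the log10 fold enrichment of weak (red), intermediate (gray) and strong (blue) promoters in each library, with dotted lines at 1.0 and 1.7. Right, median OCR width in bp of the same classes, where HPC7-1 has the widest OCRs in every class (645 bp at weak and 2358 bp at strong promoters).

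Weak promoters varied more between libraries than strong ones. After each library was shifted to the same median over all genes, the median SD of a gene's log10 fold enrichment was 0.0821 for weak, 0.0532 for intermediate and 0.0363 for strong promoters. Counting error alone, from the reads at the summits, would give 0.0660, 0.0292 and 0.0165. The order of the classes was therefore the same for counting error, and the excess over it was not tested. When the classes were chosen on 6 libraries and read in the one left out, between 88.4% (HPC7-6) and 100% (HPC7-1 and HPC7-8) of the weak promoters had a peak in the omitted list, and between 66.2% (HPC7-8) and 99.2% (HPC7-6) of those were below 1.0 there. Of strong promoters chosen in the same way, at least 99.975% had a peak in the omitted list.

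The 10 weakest members included genes of several functions. Sox13 encodes a transcription factor of the Sox family; its values ran from 0.441 to 0.640 with a median of 0.506. Gng13 encodes a G protein gamma subunit of taste cells and neurons, and its values ran from 0.440 to 0.595 with a median of 0.519. Tnfrsf25, a death domain receptor of lymphocytes, had values between 0.4496 and 0.584 with a median of 0.544. The ranges of these 3 genes overlapped, and no library was lowest or highest in all of them. Crip2 (a LIM domain protein), Tgfbr3l, Insl3 (a peptide hormone of the testis), Tanc2 (a postsynaptic scaffold), Rab26 (a small GTPase of secretory vesicles), Plin4 (a lipid droplet coat protein) and the gene model Gm29797 completed the group, with means between 0.525 and 0.550. Across all 10, the fold enrichment averaged between 3.32 and 3.58 and the SD between libraries was at most 0.571.

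**Figure D3:**
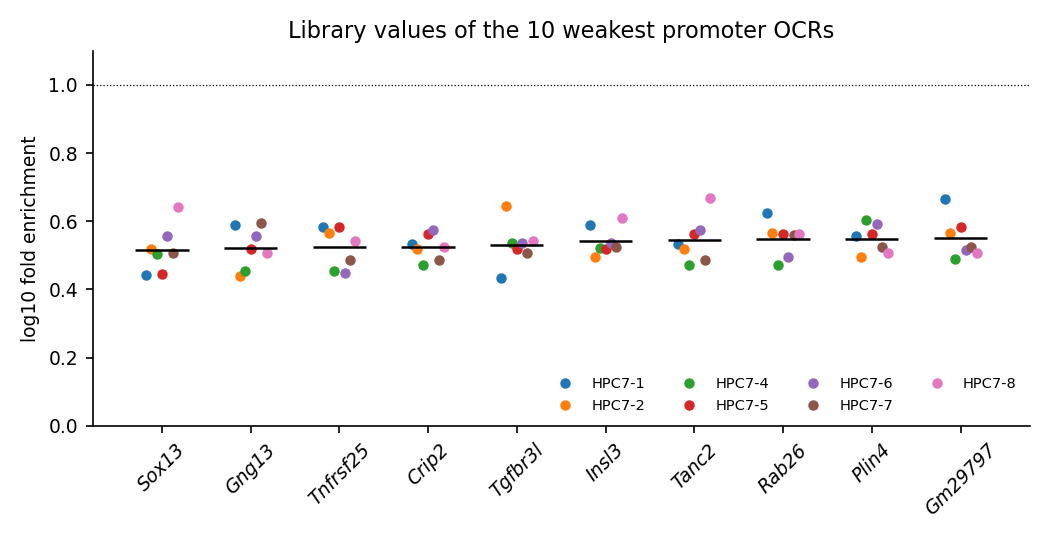
Log10 fold enrichment (y axis) of the 10 weak promoters with the lowest means (x axis) in each of the 7 libraries (colored points), with the mean as a black bar and the threshold of 1.0 as a dotted line. All values lie below 0.7, and the libraries are not in the same order at different genes.

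At the threshold, the members just inside it were Tnni1 (troponin I of slow muscle), Fndc4 and Artn (artemin, a neurotrophic ligand), with means of 0.9986, 0.9992 and 0.9998. Just outside lay 4930402F06Rik, Gpr34 and Nectin4 at 1.0005, 1.0005 and 1.002. Their libraries spread over a range much larger than these gaps, from 0.866 to 1.21 at Tnni1 and from 0.848 to 1.13 at Gpr34.

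In HPC7-1, 10 weak promoters had a log10 fold enrichment of 1.7 or more, and in the other 6 libraries 0 had. These genes are named here after their values were seen: Bricd5, Rhbdl1, Kdm6b, Ntn3, Oas3, Slc11a2, Rhbdf2, Il12rb1, Acsl5 and Ier5l. At all 10, the HPC7-1 peak that overlapped the window had its summit between 1.895 and 5.31 kb from the gene start. Kdm6b, which encodes a histone H3 lysine 27 demethylase, is an example: a peak of 7120 bp in HPC7-1 reached 2.15 with its summit 5.31 kb away, whereas the highest of the other 6 libraries was 0.922. At Bricd5 the corresponding values were 2.41 in a peak of 5674 bp and 0.727. Over all members, the summit lay more than 1 kb from the start for 77 genes in HPC7-1 and for 53 to 60 genes in the other libraries. When only peaks with a summit within 1 kb of the start were used, an alternative added after the data were seen, 640 genes were weak promoters, 610 of them among the 693.

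Weak promoter OCRs were narrow. Their median width was 645 bp in HPC7-1 and 411 to 508 bp in the other libraries, and averaged 484 ± 78.7 bp (SD, n = 7) against 1926 ± 204 bp at strong promoters. The ratio of the medians was 0.250 ± 0.0169 (n = 7), with a range of 0.224 in HPC7-6 to 0.274 in HPC7-1. Distal OCRs, for comparison, had a median width of 402 ± 9.52 bp and a median log10 fold enrichment of 0.759 ± 0.0542, and 71.0% ± 3.51 of them were below 1.0. Width and height come from the same peaks, so this is a description of the members and not a test.

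Member widths covered a wide range. Vsig2, an immunoglobulin domain surface protein, had the widest OCR at 4274 ± 1047 bp (SD, n = 7), and Mdk, the heparin-binding growth factor midkine, followed at 2854 ± 1595 bp. The summit at Vsig2 lay 1522 bp inside the gene, in an intron. Rhbdl1, Col11a2 and Wfikkn1 completed the 5 widest, and their widths ranged over the libraries from 893 to 7254 bp, from 380 to 4597 bp and from 209 to 6835 bp. At the other end, Pnck (a calcium/calmodulin-dependent kinase) and Homez (a homeobox and leucine zipper protein) had OCRs of 200 bp in every library, which was the narrowest peak in each of the lists. Prrx2, Gm13283 and Ifnb1 followed with 226, 251 and 262 bp.

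Summits of weak OCRs lay farther from the gene start. The median distance was 221 bp for weak, 110 bp for intermediate and 94 bp for strong promoters, where the position of a gene's summit is its median over libraries. Within 250 bp of the start lay 362 weak summits (52.2%) against 79.4% of the strong ones, and more than 500 bp away lay 221 (31.9%) against 11.8%. Weak summits were upstream of the gene in 365 cases (52.7%), in an exon in 189 (27.3%), in an intron in 134 (19.3%) and past the end of a short gene in 5 (0.722%), and for strong promoters the shares were 52.3%, 39.1%, 8.31% and 0.283%. Another protein-coding gene started within 1 kb of 35 weak promoters (5.05%), against 26.0% of the strong and 12.6% of all protein-coding genes. Over genes with a peak in all 7 lists the share was 21.6%. The rule takes the highest peak in the window, so a gene starting within 1 kb of a strong promoter often takes that peak and is then not weak. This contrast is therefore partly set by the rule. Divergent pairs, in which the neighbor is transcribed away from the gene from an upstream start, made up 6 weak (0.866%) and 1238 strong promoters (15.2%). The share was 12.2% over genes with a peak in all 7 lists and 6.79% over all protein-coding genes. The rule bears on divergent pairs in the same way. The annotated start was that of a coding transcript in 89.8% of weak and 88.0% of strong promoters. For 505 weak and 6471 strong genes RefSeq promoters of the same symbol and build could be matched, and a RefSeq start lay within 100 bp for 68.7% and 79.3% of them.

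Weak promoters were poorer in CpG than strong promoters. CpG island-like starts were found at 175 weak promoters (25.3%, 95% Wilson interval 22.2 to 28.6%), compared with 52.8% of the intermediate, 80.2% of the strong and 44.4% of all protein-coding genes, and with 16.1% of the genes with a peak in no list. The median ratio of observed to expected CpG over 1 kb was 0.350 at weak, 0.642 at intermediate and 0.765 at strong promoters, and 0.552 over all genes. Median GC content was 53.5% at weak and 59.5% at strong promoters. In the 100 bp on either side of the summit the ratio was 0.364 at weak and 0.867 at strong promoters, and 0.181 ± 0.00351 (SD, n = 7) at distal OCRs. The interval covers counting error only, and the sequence is the same in every library, so no test over libraries was possible.

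The island-like share rose with intensity inside the weak class as well. It was 17.4% of the 23 genes with a mean from 0.5 to 0.6, 21.4% of 126 genes from 0.6 to 0.7, 24.8% of 165 from 0.7 to 0.8, 22.4% of 192 from 0.8 to 0.9 and 32.1% of 187 from 0.9 to 1.0. The lowest band holds few genes, and the band from 0.8 to 0.9 went against the order. Above the threshold the share was 34.1% from 1.0 to 1.2 and 60.3% from 1.4 to 1.7, with no step at 1.0. Island-like weak promoters had wider OCRs than the rest, 617 ± 107 bp against 461 ± 71.8 bp (SD, n = 7), and summits nearer to the start, with a median distance of 162 bp against 278.5 bp. Their median intensities were close to each other, at 0.830 and 0.815.

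**Figure D4:**
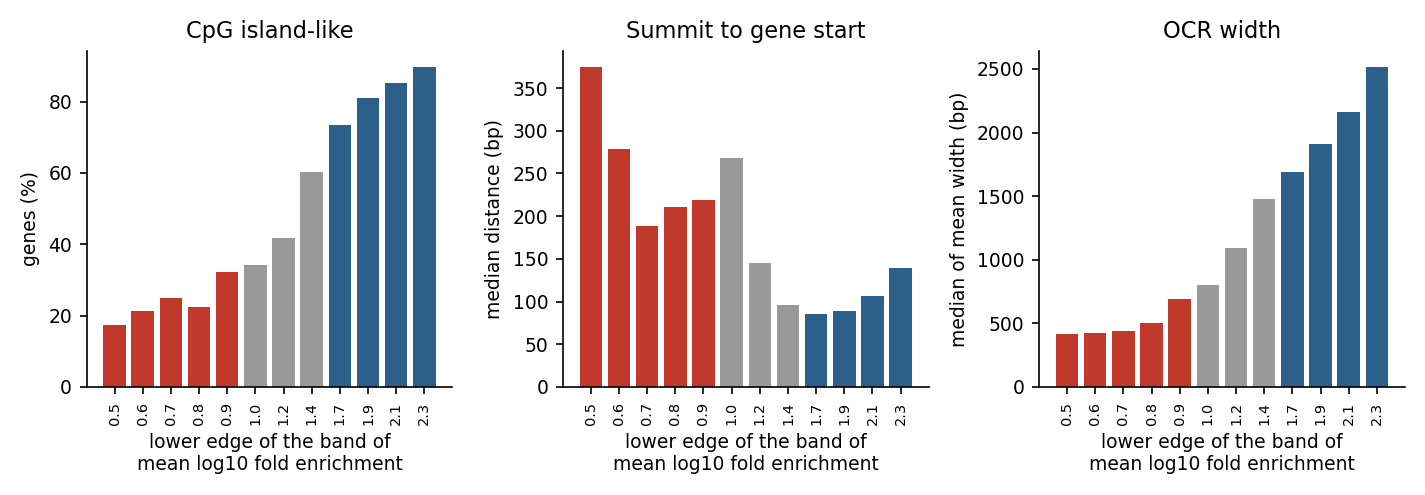
Share of CpG island-like genes (left, %), median distance from the summit to the gene start (middle, bp) and median OCR width (right, bp) by band of mean log10 fold enrichment, for weak (red), intermediate (gray) and strong (blue) promoters; each bar is labelled with the lower edge of its band. The width rises across the bands from 418 to 2518 bp. The island-like share goes from 17.4% in the lowest to 89.8% in the highest band, with a drop from 24.8% (0.7 to 0.8) to 22.4% (0.8 to 0.9). The distance is longest in the lowest band at 375 bp.

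Short motifs were counted on both strands in the 100 bp on either side of each summit. GC boxes (GGGCGG), the sites of SP1 and KLF factors, were found at 28.4% of weak, 64.9% of strong and 58.7% of all promoters with a peak in all 7 lists. The ETS core CCGGAAGT was found at 7 weak promoters (1.01%) and 8.08% of strong ones, and the NRF1 core GCGCATGC also at 7 (1.01%) and at 5.06%. The CCAAT box, the core site of NFY, was found at 21.2% of weak and 36.3% of strong promoters. Over all promoters in 7 lists the shares were 6.88% for ETS, 4.20% for NRF1 and 31.1% for the CCAAT box. These 4 motifs were all less frequent at weak summits, and all but the CCAAT box contain a CG dinucleotide.

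Motifs of factors with known roles in blood cells, and of AP-1 and CTCF, showed the opposite order. The letters AGATAA, which GATA factors bind, were found at 69 weak summits (9.96%) against 2.17% of the strong and 3.18% of all promoters in 7 lists. TGTGGT, the RUNX core, was found at 131 (18.9%) against 7.14% and 8.87%, and the PU.1 site GAGGAAGT at 31 (4.47%) against 2.19% and 2.67%. TGANTCA, bound by AP-1, was found at 62 (8.95%) against 2.31% and 3.12%. The PU.1 and ETS motifs share the letters GGAAGT. The CTCF core consensus was found at 33 weak summits (4.76%) against 25 strong ones (0.308%) and 1.03% of all promoters in 7 lists. Distal OCRs held the same motifs at shares of 16.1% ± 0.467 for GATA, 29.3% ± 0.517 for RUNX, 7.60% ± 0.264 for PU.1, 12.4% ± 0.588 for AP-1 and 5.50% ± 0.609 for CTCF (SD, n = 7). Weak promoters lay between strong promoters and distal OCRs for all 5. In the window from 250 bp before to 50 bp after the gene start, the shares at weak and strong promoters and over all protein-coding genes were 13.1%, 5.59% and 10.2% for GATA, 19.5%, 11.7% and 15.3% for RUNX and 4.04%, 2.84% and 3.23% for PU.1. They were 9.67%, 3.77% and 6.91% for AP-1 and 1.44%, 0.739% and 0.556% for CTCF, so that the CTCF shares were much closer there than at the summits. The TATA box letters TATAAA were found at 5.63% of weak and 2.03% of strong summits, the E-box CAGCTG at 15.0% and 9.12%, and the cyclic AMP response element TGACGTCA at 3 weak summits (0.433%) and 2.60% of the strong ones. For these 3 motifs the summit shares over all promoters in 7 lists were 2.66%, 10.3% and 2.42%. Within classes of base composition the differences were not all kept in size. Among promoters that were not CpG island-like (518 weak and 1606 strong), the shares at weak and strong summits were 12.7% and 4.42% for GATA, 22.8% and 10.7% for RUNX, 10.2% and 4.48% for AP-1 and 5.41% and 0.560% for CTCF, but 5.02% and 4.36% for PU.1. Among island-like promoters (175 weak and 6517 strong) they were close for GATA, at 1.71% and 1.61%, and for RUNX, at 7.43% and 6.26%. There PU.1 was at 2.86% and 1.66%, AP-1 at 5.14% and 1.78% and CTCF at 2.86% and 0.246%. A match of these letters does not show that a factor was bound, and the part of base composition in these shares was not tested.

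The gene classes at weak promoters were described with 31 lists made from gene symbols. Of the 693 members, 202 were in at least 1 list. Among 820 genes of 9 housekeeping lists (ribosome, proteasome, respiratory chain, splicing, translation, histones, replication and ubiquitin), 730 had a peak in all 7 lists, and 7 of these (0.959%) were weak and 618 (84.7%) strong. Over all genes with a peak in all 7 lists the shares were 6.12% and 71.7%. No weak promoter was found among 81 cytosolic ribosomal protein genes, 43 proteasome, 40 DNA replication and 96 translation genes with peaks in all 7 lists. The 7 housekeeping members were Mrps24, Cox19, Ddx58, Ddx60, Hnrnpf, Hist3h2ba and Usp50. Ddx58 and Ddx60 encode RNA helicases of the antiviral response, and came into the list through their symbols. Hnrnpf, Mrps24 and Cox19 were weak at the annotated start but had a strong OCR at another transcript start. Its mean was 2.11 at Hnrnpf (6466 bp away), 1.93 at Mrps24 (7993 bp) and 1.703 at Cox19 (6185 bp). The RefSeq start lay 16, 7979 and 6252 bp from the annotated start of these genes.

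Immune genes with an open start were more often weak than all such genes (6.12%). Of 540 genes in 5 immune lists, 201 had a peak in all 7 lists, and 48 (23.9%) of these were weak and 53 (26.4%) strong. Cytokine and chemokine receptors gave 14 weak of 46, from Tnfrsf25 at 0.523 ± 0.0594 to Tnfrsf10b, a receptor of the death ligand TRAIL, at 0.970 ± 0.0929 (SD, n = 7). The others were Ccr7, Ccr10, Cxcr5, Il1r1, Il5ra, Il10ra, Il12rb1, Il18r1, Il20ra, Tnfrsf13c, Tnfrsf22 and Tnfrsf23. Tnfrsf22 and Tnfrsf23 are neighboring close copies, and whether the aligner divided reads between them was not tested.

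Cytokines and chemokines gave 8 weak of 32 (Ccl4, Ccl7, Ccl24, Csf2, Cxcl5, Ifnb1, Il13 and Il17c). Ifnb1, which encodes interferon beta, was the lowest with values from 0.519 to 0.754 and a median of 0.578, and its summit lay 663 bp upstream. Cxcl5, a neutrophil chemoattractant, was the highest with values from 0.818 to 1.06 and a median of 0.942. The ranges of these genes did not overlap. Leukocyte surface receptors gave 22 weak of 96, from Cd300ld3 at 0.631 ± 0.0893 to Fcgrt, the neonatal Fc receptor, at 0.952 ± 0.155. Some of the 22, such as Itga8, Itga10, Itgb4 and Clec2l, are not particular to leukocytes and came into the list through their symbols. The other immune lists were small, with 2 weak of 6 granule protease and mast cell genes (Cma2 and Gzmm) and 2 weak of 25 interferon-induced genes (Ifi205 and Oas3), the latter near the 6.12% of all genes. Of the 48 immune members, 7 (14.6%) were CpG island-like.

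The marker lists held 2 weak promoters. Lhx2, a LIM homeobox factor used to immortalize hematopoietic progenitors, of which HPC7 is an example, had values from 0.642 to 0.872 with a median of 0.772 at its annotated start, and another transcript start 11478 bp away had a mean of 1.55. Ms4a2, the beta chain of the high-affinity IgE receptor of mast cells, had values from 0.769 to 1.08 with a median of 0.925, and its summit lay 1 bp upstream of the start. In both genes HPC7-6 was among the 2 lowest libraries. Of the other 14 stem and progenitor markers, 10 were strong, among them Kit at 2.02 ± 0.111 and Lyl1 at 2.42 ± 0.0907.

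Genes of a group called here sensory and neural membrane proteins were, when open at the start, more often weak than all such genes. The group joins 4 lists made from symbols (olfactory and vomeronasal, neurotransmitter, and orphan and adhesion receptors, and ion channels). Not every member is sensory or neural, as Kcnh2 below shows. Of 1877 genes, 127 (6.77%) had a peak in all 7 lists, with 36 (28.3%) weak, against 6.12% of all genes with such a peak, and 36 strong. The small number of open starts was mostly that of the olfactory and vomeronasal receptors, with 16 of 1479, whereas 52 of 184 ion channels, 22 of 109 neurotransmitter receptors and 37 of 105 orphan and adhesion receptors were open, and 11327 of 21938 genes in all. Olfactory and vomeronasal receptors, which are used in the nose, gave 8 weak of 16. The lowest was Olfr221 with values from 0.543 to 0.771 and a median of 0.668, and the highest was Olfr1393 with values from 0.713 to 1.06 and a median of 0.927. Of the 8, 0 were CpG island-like. Receptors of this family resemble each other, and whether reads were placed at the wrong copy was not tested. Neurotransmitter receptors gave 9 of 22, from Grm4, a glutamate receptor, at 0.725 ± 0.141 to Chrm5, a muscarinic acetylcholine receptor, at 0.956 ± 0.0851. Ion channels gave 10 of 52, from Cacng8 at 0.612 ± 0.0741 to Kcnh2, a potassium channel of the heart, at 0.949 ± 0.121. Orphan and adhesion receptors gave 9 of 37, from Gpr160 at 0.717 to Gpr141 at 0.997.

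Matrix and adhesion genes had the highest weak share of these 4 groups, with 15 weak (36.6%) and 8 strong of 41 genes with a peak in all 7 lists. Adamts4, a protease that cuts the proteoglycan aggrecan, was the lowest of the matrix genes with values from 0.520 to 0.719 and a median of 0.640. Col11a2, a collagen chain of cartilage, was the highest with values from 0.644 to 1.29 and a median of 0.797, where HPC7-1, HPC7-4 and HPC7-6 were above 1.0 and the other 4 libraries were at or below 0.797. Cadherins and protocadherins gave 7 of 18, from Cdh22 at 0.626 ± 0.115 to Pcdhgc5 at 0.870 ± 0.0901. In contrast to the immune group, 7 of the 15 matrix and adhesion members (46.7%) were CpG island-like; the difference between the groups was not tested.

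Several other lists had a weak share nearer to the 6.12% of all genes with a peak in all 7 lists, of which 71.7% were strong. Zinc finger proteins gave 5 weak of 309 (1.62%) and 220 strong (71.2%), and their weak members ran from Zkscan16 at 0.612 ± 0.0495 to Zfp711 at 0.915 ± 0.0949. Developmental homeobox, Sox, Fox and T-box factors gave 5 weak of 58 (8.62%; Sox13, Sox5, Hoxb5, Lhx1 and Lhx2) but only 25 strong (43.1%), and all 5 weak ones were CpG island-like. Solute carriers gave 15 weak of 184 (8.15%) and 125 strong (67.9%), and the weak ones ran from Slc9a2, a sodium/proton exchanger, at 0.574 ± 0.113 to Slc16a11, a monocarboxylate transporter, at 0.989 ± 0.0828. Serpins and serine proteases lay farther from this share, with 6 weak of 15 (40.0%), from Prss29 at 0.598 ± 0.0831 to Serpinf1 at 0.857 ± 0.119. Dyneins and ciliary proteins gave 5 of 43 (11.6%), from Cfap97d2 at 0.696 ± 0.121 to Dnah11 at 0.981 ± 0.139. Genes with only a clone name gave 55 of 516 (10.7%), from Gm29797 at 0.550 to 9430097D07Rik at 0.998.

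Some weak starts belonged to genes with a strong OCR elsewhere. At 60 weak promoters (8.66%, 95% Wilson interval 6.79 to 10.99%), another transcript of the same gene started more than 1 kb away at a separate OCR with a mean of 1.7 or more. Another start was left out when its highest peak was that of the gene start in any library. Strong OCRs are wider and may lose more starts in this way, which was not tested. The share was 6.29% for intermediate and 4.28% for strong promoters, and of the 377 weak genes that have such another start at all it was 15.9%. Among genes with such another start, it was 9.81% for intermediate and 6.20% for strong promoters, and 7.22% over all protein-coding genes. The highest was at Rab26, whose annotated start had values from 0.471 to 0.624 with a median of 0.561 and whose other start 4264 bp away had a mean of 2.46. Ppp2r5a, a regulatory subunit of protein phosphatase 2A, reached 2.40 at a start 6231 bp away, against 0.956 ± 0.0964 at the annotated start. H3f3b, which encodes the replication-independent histone H3.3, reached 2.28 at 3458 bp against 0.671 ± 0.123. A630001G21Rik and Coq8a, a kinase-like protein of coenzyme Q synthesis, reached 2.27 and 2.26. Of these 60 genes, 10.0% were CpG island-like at the annotated start, against 26.7% of the other 633.

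Weak promoters had fewer distal OCRs around them than strong promoters. A distal OCR is a peak more than 3 kb from every annotated transcript start, and its summit was counted within 100 kb of the gene start. Weak promoters had an average of 7.71 (HPC7-6) to 12.7 (HPC7-1) with a middle value of 9.29 (HPC7-5), and strong promoters had more in each library, from 8.85 (HPC7-6) to 15.2 (HPC7-1) with a middle value of 10.9 (HPC7-5). The libraries differed in their number of peaks, and weak and strong promoters moved with it together. The difference was -1.66 ± 0.462 OCRs (SD, n = 7), with weak promoters lower in all 7 libraries (two-sided exact sign-flip permutation test, p = 0.0156, the smallest that 7 libraries allow; Benjamini-Hochberg adjusted p = 0.0234 over 3 measures). Over all protein-coding genes the mean was 8.16 ± 1.51, and over genes with a peak in no list 4.47 ± 0.783, so that weak promoters at 9.72 ± 1.72 were above both. Genes with a peak in 1 to 6 lists were close to the weak promoters, at 9.65 ± 1.68.

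The nearest distal OCR was also farther away. Its median distance was 11.9 ± 1.23 kb for weak and 9.23 ± 1.28 kb for strong promoters (SD, n = 7), with 15.0 ± 2.24 kb over all genes. The log2 ratio of 0.37 ± 0.0585 had the same sign in all 7 libraries (p = 0.0156 and adjusted p = 0.0234 in the exact sign-flip test). The intensity of that nearest OCR had medians of 0.759 ± 0.0530 at weak and 0.755 ± 0.0549 at strong promoters on the log10 scale. The difference was 0.00405 ± 0.0131, and 4 of the 7 libraries had a difference of exactly 0. With only 3 libraries that differ, the exact test cannot go below 0.25 and says nothing about this measure (adjusted p = 0.75). These tests hold the genes fixed and compare libraries, and genes that lie near each other share distal OCRs.

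**Figure D5:**
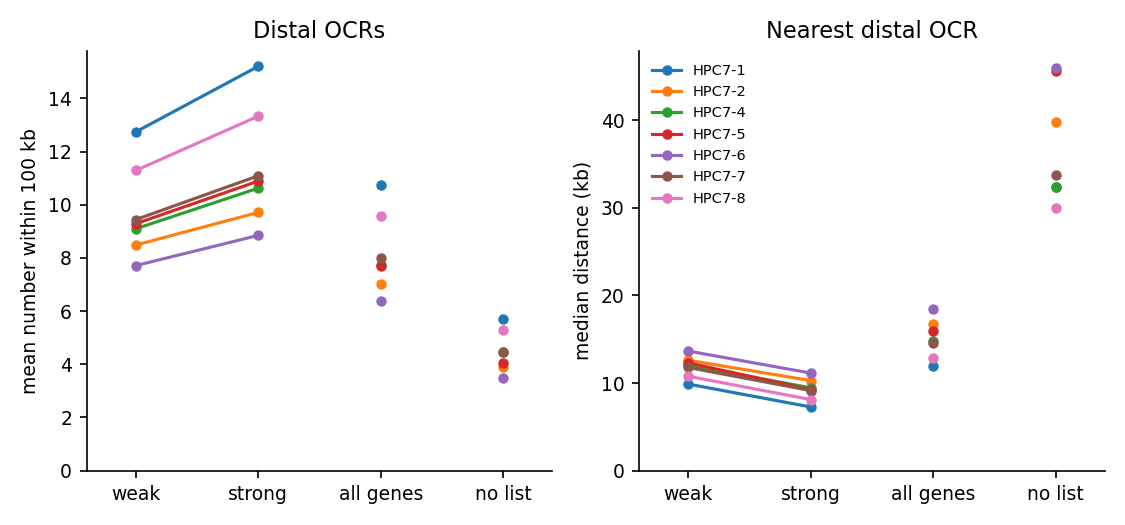
Mean number of distal OCRs within 100 kb of the gene start (left) and median distance to the nearest one in kb (right) in each library (colored points), for weak and strong promoters (joined by lines), all protein-coding genes and genes with a peak in no list. In all 7 libraries weak promoters have fewer distal OCRs and a longer distance than strong ones, while both lie above all genes in number.

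The distal difference was seen in both kinds of base composition. Among CpG island-like genes, the 175 weak promoters had 8.34 ± 1.59 distal OCRs and the 6517 strong ones 11.5 ± 2.23, a difference of -3.19 ± 0.637 (SD, n = 7; exact sign-flip permutation test, p = 0.0156). Among the other genes, the values were 10.2 ± 1.77 for 518 weak and 10.8 ± 2.00 for 1606 strong promoters, a difference of -0.621 ± 0.249 (exact sign-flip permutation test, p = 0.0156). These p-values were not adjusted, and whether the differences of these strata differ from each other was not tested. The distance to the nearest distal OCR was 16.4 ± 3.20 kb for weak and 9.06 ± 1.28 kb for strong promoters among island-like genes (log2 ratio of 0.84 ± 0.149). Among the other genes it was 11.1 ± 1.28 kb and 9.92 ± 1.27 kb (log2 ratio of 0.16 ± 0.0375). Gene length moved in the opposite direction within them: island-like weak genes had a median length of 32.0 kb against 24.3 kb for strong ones, and the other weak genes 14.4 kb against 17.0 kb. At least 1 strong promoter lay within 100 kb of 66.7% of the weak and 79.0% of the strong promoters, against 57.6% of all protein-coding genes. This count includes starts within 1 kb, where genes often share a peak and with it the class. The part of such pairs in the gap was not tested.

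Among the members with the most distal OCRs was Cdh15, a muscle cadherin, with 37.7 ± 5.15 within 100 kb (SD, n = 7). Itln1, a lectin of the gut, had 37.7 ± 5.53, Acsf3, a mitochondrial acyl-CoA synthetase, 35.4 ± 5.65, and Ppp2r5a 35.0 ± 4.93. Cdh15 and Acsf3 start within 100 kb of each other on chromosome 8, and their windows overlap. The low end of the range was 0 in every library, as at Pcdh18, a protocadherin, and at Lrrn3, named here after their values were seen. Among the 10 weakest promoters the number ran from 1.00 in every library at Tanc2 to 23.0 at Plin4. Within the weak class the mean number did not follow intensity, at 10.9 in the lowest band of 23 genes, 8.92 from 0.8 to 0.9 and 10.2 from 0.9 to 1.0.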

How the data were processed

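Bulk ATAC-seq was measured in 7 HPC7 libraries of 1 group. Per the study's methods, adapters were removed with Cutadapt, BWA-mem placed the reads on mm10, and MACS2 called the peaks of every library on its own. Versions and options are not given in the sources used here. A line of the deposited lists holds the start and end of a peak, a summit offset, a fold enrichment (a ratio without scaling between libraries), −log10 p-values and q-values and a score derived from the q-value. The deposited fold enrichments were whole multiples of 1 step within each library (tolerance 0.02, 100% of peaks), and reads at summits were computed as the multiple minus 1, assuming that MACS2 added 1 read to pileup and background. The lists hold no read totals, so depth is given only as this background.

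Genes and transcript starts came from GENCODE M21 and sequence from GRCm38. A peak belonged to a start when it overlapped its window by 1 bp. The members and lists were chosen with earlier results of these data known. Named genes were the 10 lowest means, 3 on either side of the threshold, the lowest and highest of each list with at least 4 weak members, the 5 with the most distal OCRs, the 5 highest other starts, the 5 widest and 5 narrowest OCRs and marker genes; other names complete a list or were chosen after their values were seen. 1 gene that this rule names is not reported here. Distal measures were compared with exact sign-flip permutation tests over libraries, adjusted by Benjamini-Hochberg. Alternatives were other windows, thresholds, peak filters and definitions, and each library left out. Functions were tested on simulated data. Tools were scipy 1.17.1 and pandas 2.3.3 with numpy 2.4.6, pysam 0.24.0 for sequence and matplotlib 3.10.9 for figures, under Python 3.11.15.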

Additional observations from a re-analysis of the deposited data

Results flagged for a closer look

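HPC7-1 stood apart from the other libraries in 4 of 13 measures compared over the 7 libraries, each time as the highest value with a gap to the next library that was large for the range of the group. The background was 20.4 reads in HPC7-1 and 7.45 in the next library. The median height of weak summits was 159 reads in HPC7-1 and 55 in the next. The median width of weak OCRs was 645 bp in HPC7-1 and 508 bp in the next, and the median width of strong OCRs was 2358 bp and 1978 bp. Chance flags about 1 in 20 such groups. The background, the heights and both widths moved together in this library, and their part in each other was not tested. The width ratio and the median log10 fold enrichment of weak promoters in HPC7-1 were not beyond this limit.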

How the results depend on the processing

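Of 98 values computed under other settings, 85 stayed within the limit for their kind, which was 1.5 times for the number of weak promoters, the 95% Wilson interval of the weak share for shares, 1 SD over libraries for the width ratio, and the same sign and side of 0.05 for tested values. The number of weak promoters was 506 (threshold of 0.9) to 903 (window of 2 kb) under the other definitions, and 696 to 743 when single libraries were omitted; shifting the libraries to the same median leaves a gene's mean as it is by construction. The difference of weak minus strong CpG island-like share, -55.0 percentage points, was -49.4 for 250 bp before to 50 bp after the start and -40.7 for an observed to expected ratio of at least 0.75. The width ratio was 0.294 with mean widths. The share of weak promoters with a strong OCR at another start was 15.6% where a mean of 1.0 or more sufficed. With only the EtOH libraries, the difference in distal OCRs was -1.61 and the log2 ratio of the distance 0.37, and with only the VD libraries -1.74 and 0.36; 4 and 3 libraries cannot reach 0.05 in an exact sign-flip test, where p was 0.125 and 0.250. The log2 ratio of the distance was 0.16 for genes that are not CpG island-like and 0.84 for island-like genes, with the same sign in all 7 libraries. The difference in intensity of the nearest distal OCR, 0.00405 with a test that could not reach 0.05, turned to -0.00181 at a −log10 q of at least 5, to -0.00250 with 84593 peaks from each library and to -0.00324 for genes that are not CpG island-like, and ranged from -0.00334 to 0.00592 with each library left out. It was larger, at 0.00956, with distal OCRs counted from 1 kb (exact sign-flip test, p = 0.0625). For genes with no other protein-coding start within 10 kb it was 0.0119 (exact sign-flip test, p = 0.156). No paired analysis was possible because the libraries form 1 group, so that replicate numbers pair no samples between groups; the distal tests compare classes of genes within each library.

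The lists hold no read totals, and the part of depth was not tested. Genes whose OCR was missed in 1 list or more could not enter the class, so that its lower edge depends on detection in every list, and 1194 genes had a peak in only some lists.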

Other observations

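Some weak starts belonged to genes with known roles in blood cells that none of the gene lists held, named here after their values were seen. Rag1 and Rag2, the recombinase genes of lymphocytes, had means of 0.791 ± 0.0753 and 0.942 ± 0.0926 (SD, n = 7), and Rag1 ranged from 0.686 to 0.871. Gfi1, a repressor in stem cells and granulocytes, had 0.949 ± 0.131 at a CpG island-like start. Runx2, a relative of the blood cell factor Runx1, had 0.780 ± 0.0900, and another start 78621 bp away had a mean of 1.86. Hif1a, the oxygen-regulated factor, had 0.998 ± 0.0964 at its annotated start and 2.16 at another start 6529 bp away.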
